A study of Mus musculus with 25 samples.

Results

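Among 25 microarrays of mouse mammary tissue, 10 carried low squamous marker levels together with the highest levels of Apobec3, and these 10 fell into 2 sets by the level of that gene. Set A held the 6 arrays with Apobec3 above 10.5 on the log2 scale, which are labelled K8 tumors 2, 3, 5 and 6 and Lgr5 tumors 3 and 5. Set B held the 4 arrays labelled K8 tumors 1, 4, 8 and 10, with Apobec3 at or below 10.5. The sets were thus chosen by the measured level of Apobec3 on its brighter probe set and no label gives the split, so Apobec3 itself is described without a test. The question put to the data was how much of the difference between the sets took the form of on/off expression, as alleles that differ between mouse strains give, and how much took the form of graded expression in tumor genes.

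All arrays of both sets are labelled as mammary tumors of mice that express PIK3CA H1047R, a mutant catalytic subunit of PI3-kinase found in breast cancer, after tamoxifen given at 7 to 8 weeks of age. In the K8-creERT2/PIK3CA H1047R line (mixed background FVB/CD1), Cre recombinase is driven in cells with keratin 8, a keratin of luminal cells. In the Lgr5-creERT2/PIK3CA H1047R line (mixed background FVB/C57/BL6), it is driven in cells with Lgr5, a receptor of Wnt-responsive cells. Set A therefore mixed 4 arrays of the first line with 2 of the second, and set B held arrays of the first line alone. The labels do not say whether tumors came from separate animals, so a p-value weighs a difference against the scatter of these arrays, part of which can be technical. Each array also carries a serial code in its label, and in that order set B took places 3 to 6 and set A places 7 to 11 and 13. The labels do not say what the codes record, and this order and the split between the sets cannot be told apart.

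Apobec3 is a cytidine deaminase that restricts retroviruses by editing their DNA during reverse transcription, and in mice its expression level and splicing are known to differ between inbred strains. The mammary gland holds luminal cells, some of which sense estrogen and progesterone and pass the signal on through secreted factors such as Wnt4, and contractile basal cells around them. Heat-shock chaperones fold proteins and rise when proteins are damaged, under control of a factor that binds repeated GAA units in promoters.

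The titles of the arrays are in doubt, since tissue markers went against several labels outside the sets. The mean of the squamous list was 8.10 to 9.69 (log2) in the 5 arrays labelled gland, and 5 arrays with a Lgr5 tumor label (2, 6, 7, 8 and 9) had adipocyte list means of 12.37 to 12.54. Within the sets the tissue markers did not contradict the tumor label. Squamous means were 6.31 to 6.79 in set A and 6.44 to 6.59 in set B, and means of the luminal keratin list were 9.96 to 10.41 and 10.22 to 10.37. Basal and myoepithelial means were 10.92 to 11.25 in set A and 10.67 to 11.35 in set B, above the 8.93 to 10.50 of the other 15 arrays. Krt8 lay at 12.80 to 13.21 in set A and 13.04 to 13.23 in set B, so the luminal marker that drives Cre in one line was high in all 10 arrays. Lgr5 was at 8.33 in Lgr5 tumor 3 but at 5.88 in Lgr5 tumor 5 and between 6.05 and 6.82 in the 8 arrays labelled K8. Pik3ca did not pass the test between the sets (difference -0.02 ± 0.04, SE; limma adjusted p = 0.859), and the array does not tell the mutant from the normal transcript.

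Apobec3 was read by 2 probe sets. The brighter one, which chose the sets, had a lowest level of 10.85, a median of 10.98 and a highest level of 11.08 in set A. In set B it read 9.90 in K8 tumor 8, 10.20 in K8 tumor 1, 9.89 in K8 tumor 4 and 10.09 in K8 tumor 10. The array just inside the cut was Lgr5 tumor 3 at 10.85, and the array just outside it was K8 tumor 1 at 10.20. The mean difference was 0.94, a 1.92-fold difference, with 10.96 ± 0.10 (SD, n = 6) against 10.02 ± 0.15 (SD, n = 4).

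The dimmer Apobec3 probe set separated the sets more widely. It read 9.95 to 10.25 in set A and 8.12, 8.33, 7.71 and 7.93 in K8 tumors 8, 1, 4 and 10, a difference of 2.08 or 4.23-fold. The sets were 1.62 apart at their nearest arrays on this probe set and 0.64 apart on the brighter one. Because both probe sets are assigned to Apobec3, the gene that chose the sets, this is again a description and no independent evidence. Whether they read the same transcript forms was not tested. Among the other 15 arrays the brighter probe set lay between 8.30 and 9.84 and the dimmer one between 7.16 and 7.66. None of the 15 reached set A. The lowest array of set B, K8 tumor 4 at 9.89 and 7.71, was close to the highest of the 15 on either probe set.

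**Figure D1:**
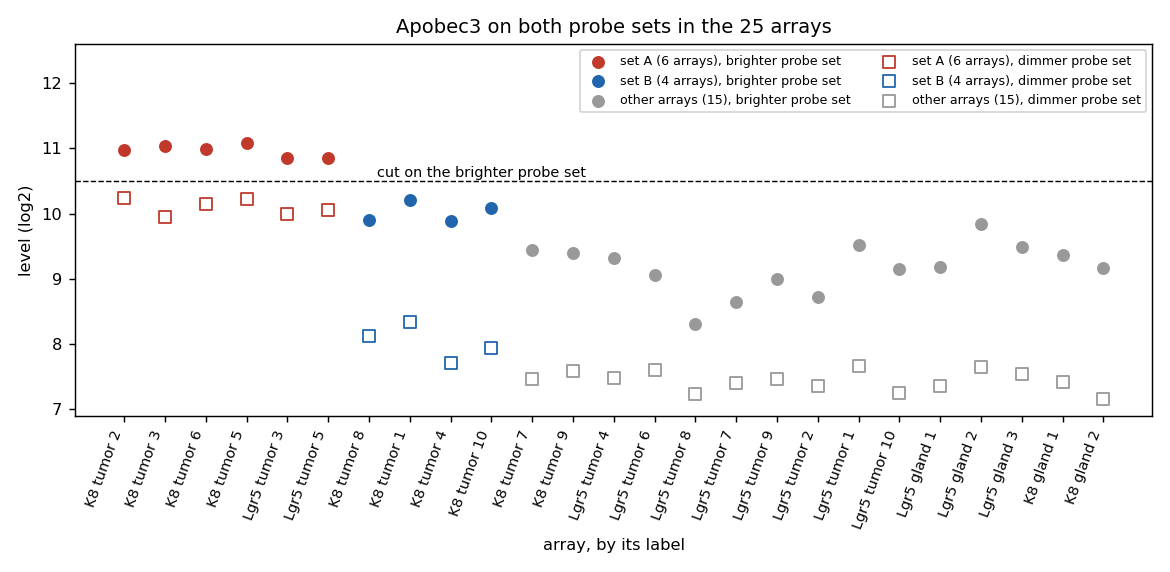
Level of Apobec3 (log2) on its brighter probe set (filled circles) and its dimmer one (open squares) in each of the 25 arrays, with set A in red, set B in blue and the other 15 arrays in grey. The dashed line is the cut of 10.5 on the brighter probe set, and on both probe sets set A lies above set B, whose lowest array is close to the highest of the other arrays.

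Across all other genes, 66 of 19936 (0.331%) differed between the sets at a limma adjusted p under 0.05, of which 27 (0.135%) were higher and 39 (0.196%) lower in set A. The differences were small: 45 of the 66 were under 0.5 on the log2 scale, the median size was 0.38, and 7 genes (0.0351%) reached 1. These were Cstad and D730005E14Rik, higher in set A, and Hsph1, Tph1, B3gnt3, Wnt4 and Trim12a, lower in set A. At an unadjusted p under 0.05 there were 2896 genes (14.5%), and in 756 genes (3.79%) the arrays of the sets did not overlap, with set A higher in 345 (1.73%) and lower in 411 (2.06%). The count of 66 moved with single arrays: it was 16 without K8 tumor 2, 25 without K8 tumor 3, 30 without K8 tumor 5, 16 without K8 tumor 6, 39 without Lgr5 tumor 3, 24 without Lgr5 tumor 5, 16 without K8 tumor 4, 11 without K8 tumor 8 and 17 without K8 tumor 10.

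The comparison was repeated with the line label held fixed, using the same set B arrays and 4 of the 6 set A arrays. Within the K8 label, 11 genes (0.0552%) passed. Direction and overlap with the 66 say nothing more here, since the arrays are shared. That count was 4 without K8 tumor 3, 3 without K8 tumor 6, 6 without K8 tumor 8, 4 without K8 tumor 1, 5 without K8 tumor 4 and 7 without K8 tumor 10. Between the 2 Lgr5-labelled and the 4 K8-labelled arrays of set A, 0 genes (0%) passed the limma test, with 1114 (5.59%) at an unadjusted p under 0.05. That count was 26 when Lgr5 tumor 5 was left out and 1 when Lgr5 tumor 3 was left out, and each of those leaves 1 Lgr5-labelled array, assumed to vary like the others.

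**Figure D2:**
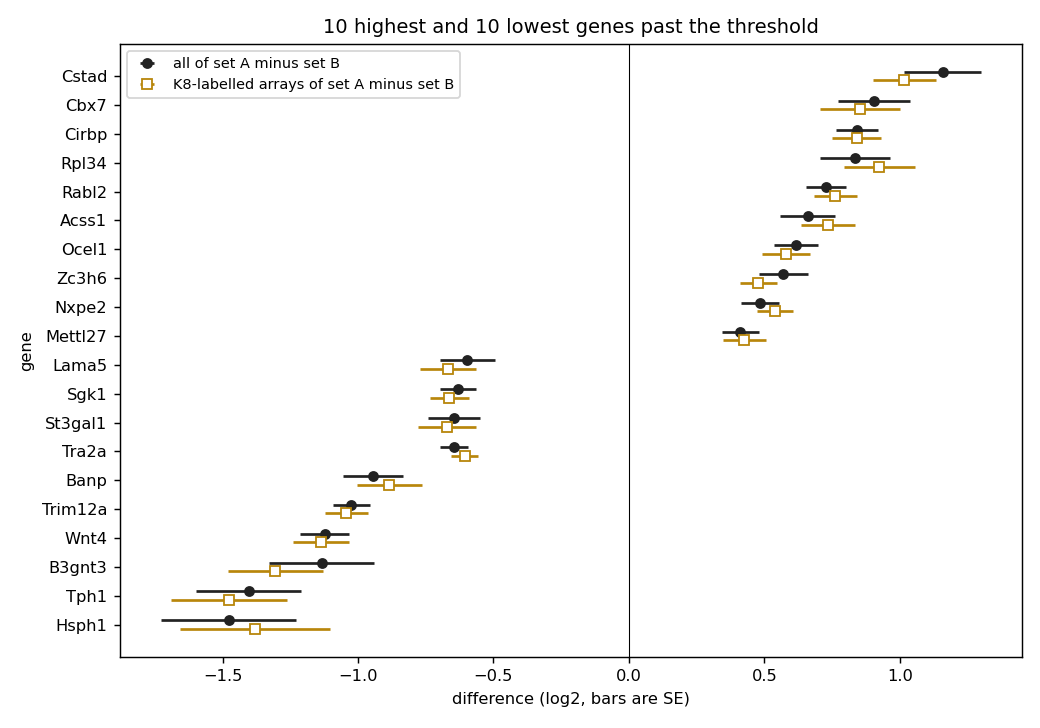
Difference in level (log2, bars are SE) of the 10 genes highest and the 10 lowest in set A among those past the threshold, without predicted genes, for all of set A minus set B (black circles) and for the K8-labelled arrays of set A minus set B (open squares). The values over all arrays run from -1.48 for Hsph1 to 1.16 for Cstad, and the arrays of the second contrast are part of the first.

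The genes that flank Apobec3 were higher in set A together with it. D730005E14Rik, a noncoding RNA gene that overlaps the start of Apobec3 by 1081 bases in RefSeq's GRCm38.p6 table, had a lowest level of 7.34, a median of 7.91 and a highest level of 8.52 in set A. In set B it read 6.81, 6.75, 6.75 and 6.80 in K8 tumors 8, 1, 4 and 10. Set B lay within the range of the other 15 arrays (6.32 to 6.78) or just above it, and all of set A lay above. It rose by 1.12 ± 0.18 (SE) in set A (limma adjusted p = 0.0385), and by 1.59 (limma adjusted p = 0.00288) with its probe sets averaged. Cbx7, a subunit of the Polycomb complex that represses genes through chromatin, overlaps the other end of Apobec3 by 2415 bases. Its lowest, median and highest levels in set A were 8.45, 8.65 and 9.15, against 7.95, 7.98, 7.71 and 7.55 in K8 tumors 8, 1, 4 and 10. Set A was the higher at every array, by 0.90 ± 0.13 (SE; limma adjusted p = 0.034), yet 5 of the other 15 arrays lay on its side of the midpoint, among them Lgr5 tumor 2 at 8.58. Probes in overlapping stretches may read both transcripts, which was not tested.

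Of the 10 nearest measured genes, 2 passed (20%), and of the nearest 50, 3 passed (6%), against 0.331% of all genes. The first 2 were D730005E14Rik and Cbx7, which overlap Apobec3, so their probes may read the transcript that chose the sets. These shares are therefore a description and no independent evidence. The third was Sgsm3, which fell by 0.41 and stands 15 measured genes away. Dnal4, 2 genes before Apobec3, differed by 0.30 ± 0.08 (SE; limma adjusted p = 0.166), and Pdgfb, a growth factor gene 2 genes after it, by 0.33 ± 0.13 (adjusted p = 0.284). Further off, the predicted gene Gm10863 differed by 0.69 ± 0.14 (adjusted p = 0.0902) and Micall1, a regulator of endosomal membranes, by 0.47 ± 0.12 (adjusted p = 0.151), both larger than Sgsm3 in size. None of these 4 passed. Of the Apobec family itself, Apobec1 (0.16, adjusted p = 0.566) and Apobec2 (-0.05, adjusted p = 0.963) did not pass, and of 18 tested genes for retrovirus restriction and sensing 0 did. That list leaves out Trim12a, a gene of a family that binds retroviral capsids, which passed and is described below.

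**Figure D3:**
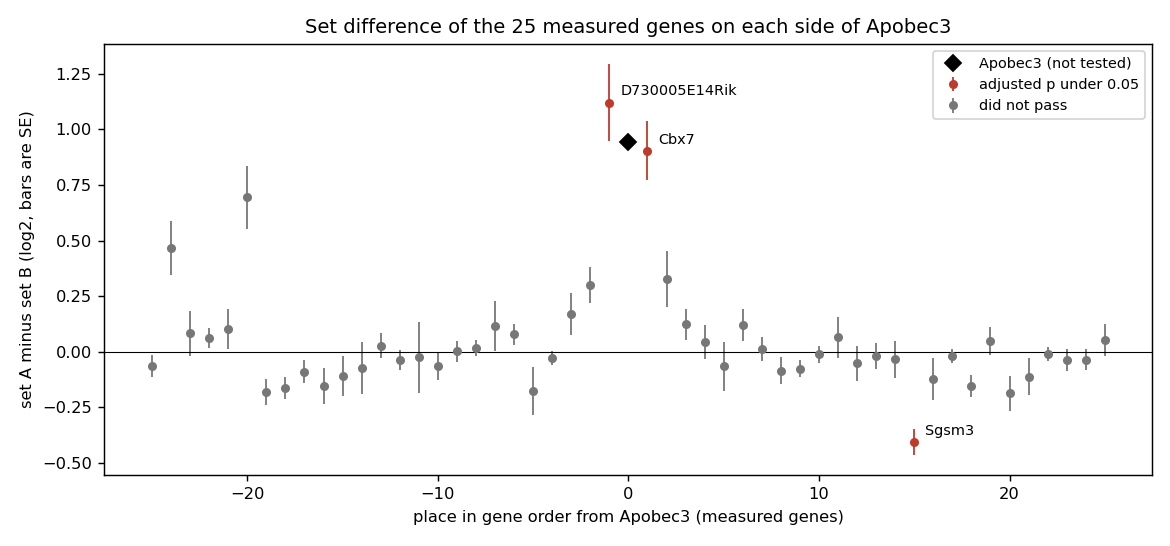
Set A minus set B (log2, bars are SE) for the 25 measured genes on each side of Apobec3 in gene order, with genes past the threshold in red and Apobec3, which was not tested, as a black diamond. The genes next to Apobec3 on either side, D730005E14Rik and Cbx7, are higher in set A by 1.12 and 0.90, and of the rest Sgsm3 alone passed, although Gm10863 and Micall1 lie further from 0 at 0.69 and 0.47.

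On/off expression was looked for by a rule: a gap of at least 1 between the nearest arrays of the sets, with none of the other 15 arrays in the inner part of that gap (more than 0.25 from both of its edges), each of them within 1 of the nearer set, and both heights found among them. No gene met it (0 genes), and 0 did among all genes tested whatever their p. Both heights had to occur among the 15, so a gene whose high level was confined to 1 set, as with Apobec3, could not meet it. The count of 0 therefore says nothing about such genes. The widest gap on the brightest probe set of each gene was 0.72, in Trim12a, and 6 tested genes had a gap of at least 0.5. The dimmer Apobec3 probe set, which is not among these, had a gap of 1.62. With the gap lowered to 0.5, 2 genes met the rule, Trim12a and Cstad. The margin of 0.25 was kept, so a gap of 0.5 has no inner part. The demand that no other array lie there thus asks little at this setting. For Cstad, whose gap ran from 6.58 to 7.19, K8 tumor 7 at 6.97, K8 tumor 9 at 6.60, Lgr5 tumor 4 at 7.12 and Lgr5 gland 1 at 6.78 lay in the gap but within 0.25 of an edge.

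Trim12a came closest to a switch. It belongs to the Trim5-like family, whose proteins bind retroviral capsids and whose genes differ in number between mouse strains. In set A its lowest, median and highest levels were 5.34, 5.40 and 5.59, and in set B it read 6.45, 6.49, 6.31 and 6.60 in K8 tumors 8, 1, 4 and 10. It fell by 1.03 ± 0.07 in set A (SE; limma adjusted p = 7.394e-04). Among the other 15 arrays, 12 were at the low height, from 5.28 to 5.49, and Lgr5 tumors 6, 7 and 8 were at 7.46, 7.12 and 6.90. The high arrays thus came from both line labels, and no array lay between 5.59 and 6.31. In both sets Trim12a was near or below the medians of the arrays over all probe sets, 6.34 to 6.43. Its mean was under 6, so the setting that required that level left it out. With all 25 arrays in the fit it did not pass (limma adjusted p = 0.354).

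Trim30d, another member of that cluster, was high in the same arrays. Its levels were 5.14 to 5.37 in set A and 6.08, 6.85, 5.77 and 6.78 in K8 tumors 8, 1, 4 and 10. Outside the sets it read 6.71 in Lgr5 tumor 6, 6.21 in Lgr5 tumor 7 and 6.15 in Lgr5 tumor 8. No other array passed 5.49. Its difference of -1.11 ± 0.19 (SE) missed the threshold (limma adjusted p = 0.0508). Trim12c went the other way, at 6.62 to 7.06 in set A and 6.44, 6.52, 6.43 and 6.43 in K8 tumors 8, 1, 4 and 10, and also missed it (0.46 ± 0.08, SE; adjusted p = 0.0508). Lgr5 tumor 8 was low with set B there at 6.23, while Lgr5 tumors 6 and 7 were at 7.15 and 6.82. These genes are near copies of one another, and how the probe sets divide signal among them is uncertain.

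Other genes on a list of those known to vary between strains did not pass between the sets. Of 18 tested genes on that list, Trim12a alone passed, where 0.331% of all genes passed. At that share a list of this size would seldom hold a call, so the rest not passing says little about them. Without overlap of the sets, 1 gene of the list was higher in set A (Trim12c) and 2 were lower (Trim12a and Nnt). Over all genes these shares were 1.73% and 2.06%. Nnt, a mitochondrial transhydrogenase gene part of which is missing in the C57BL/6J substrain, was at 8.86 to 9.30 in set A and 9.52 to 9.65 in set B, a difference of -0.42 ± 0.08 (SE; adjusted p = 0.0878), and the other 15 arrays spanned both at 8.98 to 9.77. AI506816 was at 4.80 to 4.98 in set A and 4.88 to 4.95 in set B, although it reached 9.05 to 10.08 in K8 tumor 7 and Lgr5 tumors 1, 2, 4 and 9. The sets therefore shared the low state of a gene that was on in other arrays of both lines.

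Cstad and Rabl2 were the other clear separations among genes higher in set A. Cstad, a gene first described in activated T cells, was at 7.19, 7.56 and 7.95 (lowest, median and highest) in set A and 6.24, 6.50, 6.28 and 6.58 in K8 tumors 8, 1, 4 and 10. It rose by 1.16 ± 0.14 (SE; limma adjusted p = 0.0174), but the other 15 arrays ran from 5.85 to 7.70 without a break at either height. Rabl2, a small GTPase of cilium transport, was at 7.84 to 8.20 in set A and 7.22 to 7.31 in set B. It rose by 0.73 ± 0.07 (adjusted p = 0.00538), and none of the other 15 arrays (6.76 to 7.37) reached set A. Rpl34, a ribosomal protein gene with many processed copies, had the same form, with 9.40 to 9.92 in set A, 8.58 to 9.13 in set B and 8.73 to 9.03 elsewhere; its difference was 0.84 ± 0.13 (adjusted p = 0.0385), and which copy the probes read is uncertain.

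The 66 genes were also placed against the 15 arrays that the rule did not use. For 7 genes (10.6%) all 15 lay on the side of set B of the midpoint between the set means, for 6 (9.09%) all lay on the side of set A, and for 53 (80.3%) they fell on both sides. Over all genes tested these shares were 5.39%, 5.91% and 88.7%. This sorting was chosen after the values were seen and has no test.

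Wnt4, the secreted factor through which luminal cells relay progesterone signals, was the clearest tumor gene lower in set A. Its lowest, median and highest levels there were 8.18, 8.38 and 8.62, and in K8 tumors 8, 1, 4 and 10 it read 9.47, 9.34, 9.63 and 9.65. It fell by 1.12 ± 0.09 on the log2 scale (SE; limma adjusted p = 0.00108), a 2.18-fold difference. The other 15 arrays lay at 7.68 to 8.05, below both sets. The nearest arrays of the sets were 0.71 apart, about as far as in Trim12a (0.72). None of the 15 was at the height of set B, so Wnt4 did not meet the on/off rule with a gap of 0.5. It did when both heights were not required. In bulk tissue, fewer cells of a type and less RNA per cell cannot be told apart.

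The rest of the hormone-sensing list did not pass. Of 10 tested members, 9 were lower in set A and Wnt4 alone passed, with a median difference of -0.19 for the list against -0.01 over all genes tested. Of all genes 0.196% were lower and past the threshold, so a list of this size would seldom hold a call. In 3 members set A was lower without overlap, where 2.06% of all genes were. Pgr, the progesterone receptor gene, was at 8.66 to 9.15 in set A and 9.37, 9.20, 10.06 and 10.16 in K8 tumors 8, 1, 4 and 10 (difference -0.79 ± 0.19, SE; adjusted p = 0.133). Esr1, the estrogen receptor gene, differed by -0.22 (adjusted p = 0.335). Tnfsf11, the RANK ligand gene that progesterone induces, was at 6.95 to 7.66 in set A and 7.66, 7.50, 10.66 and 8.55 in set B. It was thus high in K8 tumors 4 and 10 and level with set A in K8 tumors 8 and 1. The mean of the list was 9.31 to 9.62 in set A, 9.66 to 10.06 in set B and at most 9.32 in the other 15 arrays.

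Sgk1, a kinase that PI3-kinase signaling activates and steroid hormones induce, had lowest, median and highest levels of 9.44, 9.70 and 9.74 in set A and read 10.38, 10.32, 10.28 and 10.14 in K8 tumors 8, 1, 4 and 10. It fell by 0.63 ± 0.07 (SE; limma adjusted p = 0.00851), with all of the other 15 arrays nearer set A (8.76 to 9.51). Lama5, a laminin chain of the epithelial basement membrane, fell by 0.60 ± 0.10 (adjusted p = 0.0493) and was likewise at 9.26 or less elsewhere. Tph1, which makes serotonin, a regulator of the mammary epithelium, was at 6.08 to 6.64 in set A and 7.86, 7.56, 8.17 and 7.06 in set B. It fell by 1.40 ± 0.19 (adjusted p = 0.0288). Among the other arrays, Lgr5 tumors 6, 7, 8 and 9 were as high as set B, at 7.58, 7.60, 7.36 and 7.82. The remaining 11 were at 6.40 or less, so no array lay between 6.64 and 7.06. Lgr5 tumors 6, 7 and 8 were also high in Trim12a and Trim30d, whereas Lgr5 tumor 9 was low in both. The nearest arrays of the sets were 0.41 apart, so Tph1 could not meet the on/off rule even with a gap of 0.5. B3gnt3 and St3gal1, enzymes that extend and sialylate sugar chains, fell by 1.13 ± 0.19 (adjusted p = 0.0482) and 0.65 ± 0.09 (adjusted p = 0.034). With its probe sets averaged, St3gal1 differed by -0.36 (limma adjusted p = 0.039). Banp, a nuclear protein that binds CpG-containing promoter motifs, fell by 0.94 ± 0.11 (adjusted p = 0.0147). Among genes of metabolism, Acss1, which makes acetyl-CoA in mitochondria, rose by 0.66 ± 0.10 (adjusted p = 0.0385).

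**Figure D4:**
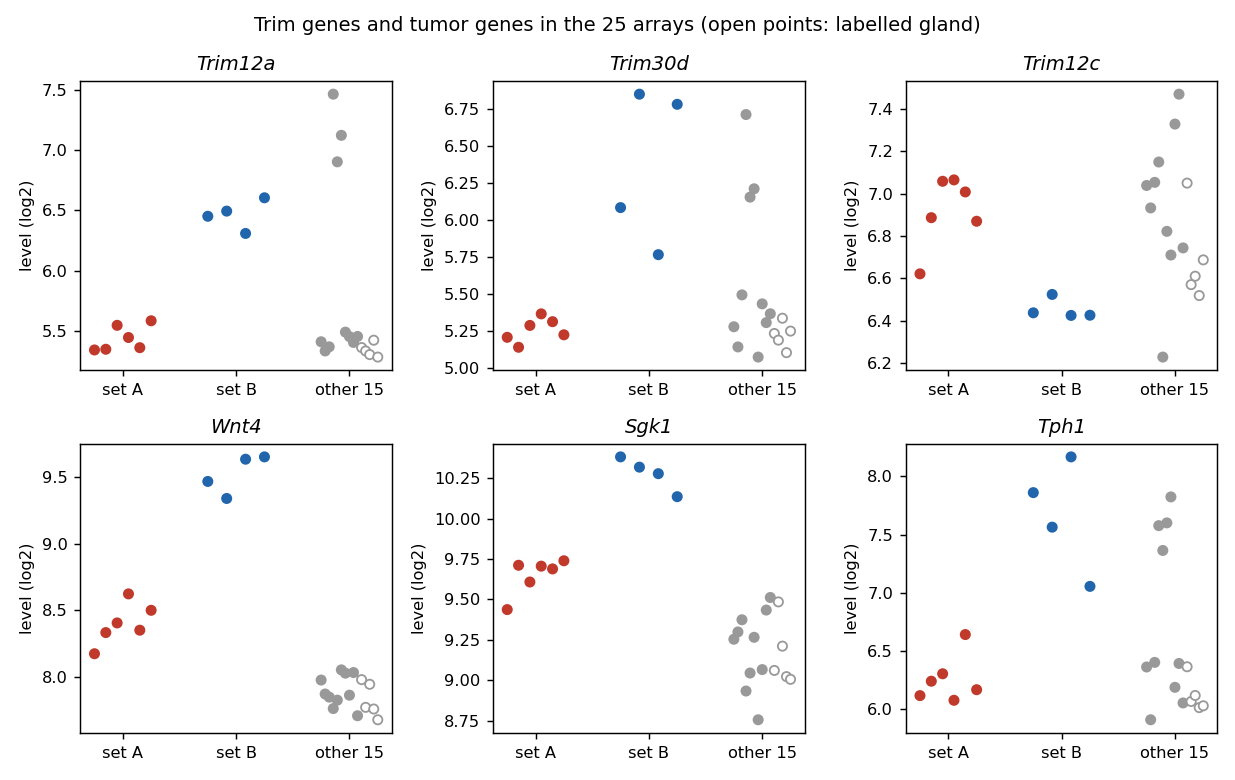
Level (log2) of Trim12a, Trim30d, Trim12c, Wnt4, Sgk1 and Tph1 in the 6 arrays of set A, the 4 of set B and the other 15, with arrays labelled gland as open points. Trim12a and Trim30d are high in set B and in Lgr5 tumors 6, 7 and 8, and Tph1 in set B and in Lgr5 tumors 6, 7, 8 and 9. Wnt4 and Sgk1 are highest in set B alone.

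Of 40 lists with 552 measured genes, 551 of them tested, 3 genes passed (0.544%, against 0.331% of all genes): Cbx7, Wnt4 and Trim12a. The PI3-kinase list (25 genes tested), the Wnt list apart from Wnt4 (14 tested) and the cell cycle list (29 tested) held 0 further calls, as did the luminal progenitor, milk, basal and squamous lists. Nrg1, a ligand of the ERBB receptors, was the ERBB list member nearest the threshold, at -0.90 ± 0.20 (SE; adjusted p = 0.104). Of the PI3-kinase list this was Pik3r2, a regulatory subunit, at 0.21 ± 0.05 (adjusted p = 0.115).

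Markers of other tissue in the samples differed between the sets without passing. All 17 adipocyte genes were higher in set A, with a median of 0.62, a list mean of 8.23 to 9.59 in set A against 7.96 to 8.85 in set B, and Plin4, a lipid droplet protein, at 1.05 ± 0.31 (SE; adjusted p = 0.188). All 16 endothelial genes were also higher (median 0.24, Cldn5 0.73, adjusted p = 0.194), as were 18 of 19 fibroblast and matrix genes (median 0.24) and 7 of 8 class II antigen presentation genes (median 0.24). Of 18 epithelial and luminal keratin genes, 14 were lower (median -0.15). Their part in the differences named here was not tested beyond adding a list mean to the fit. With the adipocyte mean as a covariate, 6 genes passed: Ahsa2, Cirbp, Trim12a, Wnt4, Tra2a and Haghl. Genes that no longer passed kept differences of similar or larger size in several cases, with Cstad at 1.14, Rabl2 at 0.75, Rpl34 at 1.06 and Hsph1 at -1.81, while Cbx7 was at 0.76 and Mettl27 at 0.31. With the luminal keratin mean as a covariate 10 passed, among them Wnt4, Trim12a, Cirbp, Cbx7 and D730005E14Rik.

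The remaining group among the 66 was one of protein folding. Of 31 heat-shock and chaperone genes, a list drawn up after the values were seen and so not tested as a list, 28 were measured and 26 were lower in set A. Their median difference was -0.22, and in 14 the sets did not overlap, where 2.06% of all genes were lower without overlap. Past the threshold were 6, where 0.196% of all genes were lower and past it. As the list came from these same values, both shares only describe it. The 6 that passed were Hsph1, Ahsa2, Chordc1, Hsp90aa1, Stip1 and Dnaja1, which encode HSP90, the HSP70 helper HSP110 and co-chaperones of these systems. Promoter sequence from RefSeq (GRCm38.p6) is shown for the 3 of them whose window from 250 bases before to 50 after the start held paired GAA units of the kind that the heat-shock factor binds. These are GAANNTTC or TTCNNGAA, which may overlap; each reads the same on both strands, and matches are in capitals.
Hsph1 (second of its entries), chr5:149636286-149636385, minus strand: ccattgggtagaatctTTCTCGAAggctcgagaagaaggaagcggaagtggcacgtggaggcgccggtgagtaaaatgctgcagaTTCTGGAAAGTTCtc
Chordc1, chr9:18292197-18292296, plus strand: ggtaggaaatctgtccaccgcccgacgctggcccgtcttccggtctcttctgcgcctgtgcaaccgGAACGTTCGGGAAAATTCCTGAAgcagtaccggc
Dnaja1 (first of its entries), chr4:40722328-40722427, plus strand: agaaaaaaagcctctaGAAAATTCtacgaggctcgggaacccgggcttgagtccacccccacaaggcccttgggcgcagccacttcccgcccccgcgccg
The first match began at position -54 from the start in Hsph1, -4 in Chordc1 and -124 in Dnaja1. Paired units were in 4946 of 32851 promoter entries of that length (15.1%), and the longer runs of 3 units seen in Hsph1 and Chordc1, GAANNTTCNNGAA or TTCNNGAANNTTC, were in 198 (0.603%). Of the 6 genes, 5 had a promoter entry, and Stip1, Ahsa2 and 2 of the 3 entries of Dnaja1 held no match in this window. A match is a description of letters and not a site.

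Hsph1 itself had lowest, median and highest levels of 7.66, 8.00 and 8.28 in set A. In set B it read 9.93, 10.06, 9.19 and 8.68 in K8 tumors 8, 1, 4 and 10. It fell by 1.48 ± 0.25 (SE; limma adjusted p = 0.0482), a 2.79-fold difference, and the other 15 arrays, at 8.33 to 9.68, overlapped set B. Set A was thus the lowest of all 25 arrays for Hsph1, and within set B K8 tumors 1 and 8 were the highest of all. Hspa1a, the inducible HSP70 gene, was at 9.83 and 9.88 in K8 tumors 8 and 1, but at 8.78 and 8.71 in K8 tumors 4 and 10, inside the 8.48 to 9.11 of set A (adjusted p = 0.327). With K8 tumors 1 and 8 left out, Hsph1 differed by -0.95 (adjusted p = 0.054).

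Ahsa2, a stimulator of the HSP90 ATPase, differed evenly across set B. It read 8.88, 8.94, 8.87 and 8.87 in K8 tumors 8, 1, 4 and 10 and 8.19 to 8.40 in set A, and fell by 0.59 ± 0.04 (SE; limma adjusted p = 7.394e-04). Chordc1 and Stip1, both HSP90 co-chaperones, fell by 0.55 ± 0.09 (adjusted p = 0.0482) and 0.41 ± 0.07 (adjusted p = 0.0482). Hsp90aa1, the inducible HSP90 gene, and Dnaja1, an HSP40 that loads clients onto HSP70, fell by 0.45 ± 0.07 (adjusted p = 0.0418) and 0.38 ± 0.06 (adjusted p = 0.0353). For Hsp90aa1, Stip1 and Chordc1, K8 tumors 8 and 1 were again the 2 highest arrays of set B, at 12.01 and 12.01, 10.91 and 10.84, and 9.97 and 10.22. Over 23 alternative settings Ahsa2 passed in 23, but Dnaja1 in 10, Hsph1 in 7, Chordc1 in 6 and Stip1 and Hsp90aa1 in 5 each, with 0 reversed. Of the genes that did not pass, Hspa8, the constitutive HSP70, differed by -0.14 (adjusted p = 0.0798) and Hspd1, the mitochondrial HSP60, by -0.29 (adjusted p = 0.147).

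**Figure D5:**
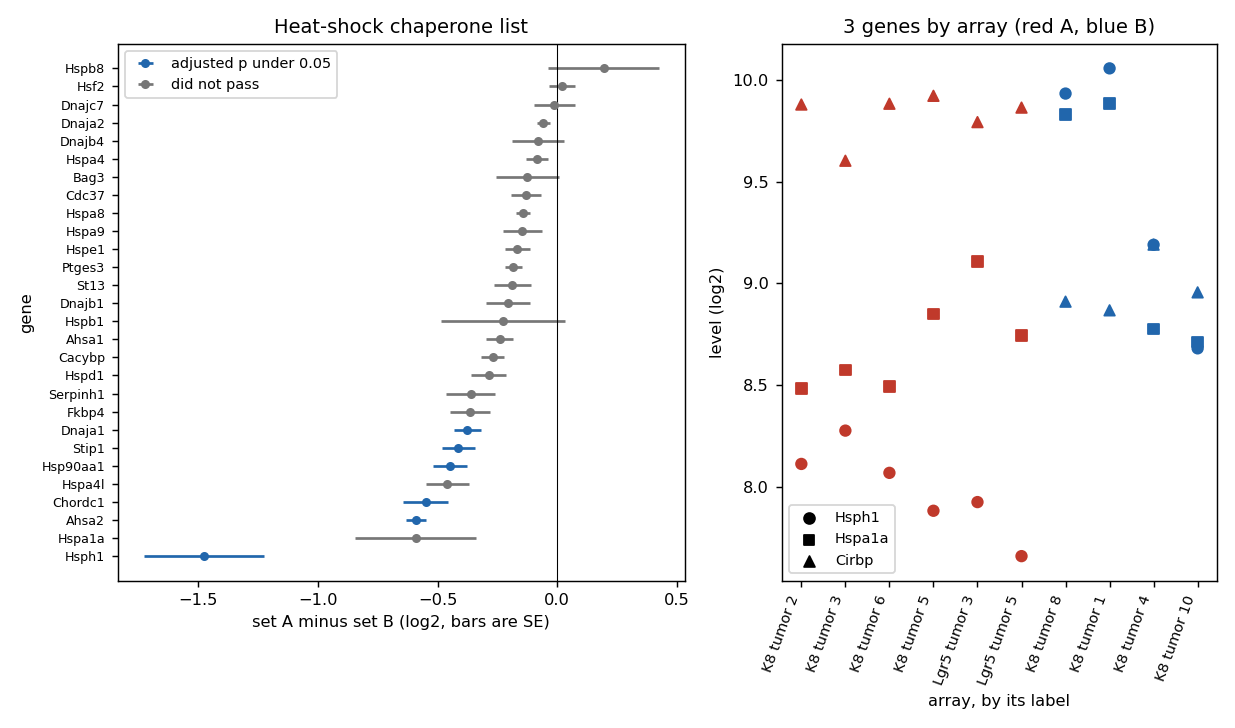
Left, set A minus set B (log2, bars are SE) for the 28 measured genes of the heat-shock chaperone list, with those past the threshold in blue. Right, levels (log2) of Hsph1, Hspa1a and Cirbp in the 10 arrays, where Hsph1 is highest in K8 tumors 8 and 1 at 9.93 and 10.06 and Cirbp is above 9.6 in all of set A.

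Cirbp, an RNA-binding protein induced by mild cold, was opposite in direction. Its lowest, median and highest levels were 9.60, 9.87 and 9.92 in set A, and it read 8.91, 8.87, 9.19 and 8.96 in K8 tumors 8, 1, 4 and 10. It rose by 0.84 ± 0.08 (SE; limma adjusted p = 0.00288), and the other 15 arrays lay at 8.46 to 9.12, with set B. Rbm3, the other well-known cold-inducible RNA-binding protein gene, differed by 0.21 (adjusted p = 0.282) and did not pass.

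Of 18 measured splicing regulators, on a list also drawn up afterwards and not tested, 4 fell (Tra2a, Srsf10, Snrnp48 and Prpf4b) and Cirbp, which is on it, rose, where 0.196% of all genes fell and 0.135% rose. Tra2a, a splicing activator, had lowest, median and highest levels of 9.91, 10.05 and 10.15 in set A and 10.69, 10.64, 10.78 and 10.67 in K8 tumors 8, 1, 4 and 10. It fell by 0.65 ± 0.05 (SE; limma adjusted p = 0.00108), but by 0.29 (adjusted p = 0.271) with its probe sets averaged, so they disagreed. Srsf10, an SR-like splicing factor, fell by 0.30 ± 0.04 (adjusted p = 0.0285), with set B above every other array of the series.

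Genes whose level followed that of Apobec3 differed with the arrays used. Over the 15 arrays outside the sets, the 5 most alike by Pearson r were Srgap3 and Tnfrsf21 (0.95 each), Crip2 (0.94), Nfib (0.94) and Id2 (0.93). Over all 25 arrays, which include those chosen for Apobec3, they were Nrarp (0.93) and Slmap, Hmgcll1, Pik3r2 and Rab27a (0.92 each). The points share tissue makeup, from fat-rich to squamous arrays, and these values describe them only.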

How the data were processed

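Total RNA of the tissue, with an input of 100 ng, was amplified and hybridised to Affymetrix whole-transcript arrays, per the labels' protocols. The deposited values of 34760 probe sets in 25 arrays are on a log2 scale by their range (4.13 to 13.9). The submitters' processing notes name affy, with no version. Its settings and the genome build were not given in the sources used here. Precision is limited by the number of arrays.

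Probe sets with 1 gene symbol in the platform annotation (21640; 1321 had several, 11799 none listed) were reduced to the brightest per symbol, giving 19937 genes. Apobec3 was dropped, leaving 19936 tested with limma 3.58.1 in R 4.3.3 (lmFit on set means over the 10 arrays, eBayes, Benjamini-Hochberg threshold 0.05). Errors beside differences are SEs of this fit. The contrasts within the K8 label and between labels within set A used 3 means. The test was tested on simulated data. No arrays held identical values (highest correlation 0.995). Gene order came from the RefSeq GRCm38.p6 table.

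Named genes were the 10 highest and 10 lowest past the threshold without predicted genes, two-level genes, the 4 list members with the smallest adjusted p, 5 neighbours on each side of Apobec3, the 5 most alike in level, and Pik3ca, Lgr5, Krt8, Esr1 and Pgr. D730005E14Rik is also a neighbour. The Trim cluster, heat-shock and splicing genes, Nnt, AI506816, Tnfsf11, Sgsm3, Dnal4, Cldn5, Rbm3 and the genes left by a covariate were chosen after their values were seen. The sets, lists and members were chosen with earlier results of these data known. Figures were drawn with matplotlib 3.10.9.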

Additional observations from a re-analysis of the deposited data

Results flagged for a closer look

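Among the genes with values given by array, 76 combinations of a gene and a set were looked at for an array far from the rest of its set, and 3 stood out; chance alone gives about 1 in 20. Cbx7 was at 9.15 in Lgr5 tumor 3, with the next array of set A at 8.69. B3gnt3 was at 7.90 in Lgr5 tumor 3, with the next at 7.16. Trim12c was at 6.52 in K8 tumor 1, with the next array of set B at 6.44.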

How the results depend on the processing

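The 66 genes between the sets became 34 with all 25 arrays sharing the spread, 35 with arrays centred on their medians, 29 with trend and robust settings, 6 and 10 with the adipocyte or luminal keratin mean as a covariate, 11 with the line label as a covariate, and 7 with a difference of at least 1 required. In alternatives added later 14 genes passed with the 8 K8-labelled arrays alone, 210 with K8 tumors 1 and 8 left out (34 of them among the 66) and 56 with K8 tumors 4 and 10 left out (18 among the 66). Leaving out each array in turn gave 11 to 51. The 11 genes within the K8 label became 18 with all 25 arrays, 20 with every probe set, 21 with array weights, 6 and 3 with the adipocyte or luminal keratin covariate, and 3 to 14 with 1 array left out. The contrast of labels within set A gave 0 to 26 with 1 array left out, and list members past the threshold gave 2 to 4. On/off genes went from 0 to 2 with a gap of 0.5, and in settings added later that change the gap to 0.5 together with another choice, to 2 with the outer limit at 1.5 and to 5 with both heights not required. Those 5 were Cstad, D730005E14Rik, Rabl2, Trim12a and Wnt4. The causes of these moves were not tested. Of the 28 genes followed through 23 alternatives, 0 reversed; Wnt4, Cirbp and Ahsa2 passed in all 23, Rabl2 in 22, Trim12a in 21 of 22, Tra2a and Sgk1 in 21, Banp in 18, Cstad in 17, Cbx7 in 13, D730005E14Rik in 11, Tph1 in 10, Rpl34, Acss1, St3gal1 and Srsf10 in 9, Sgsm3 in 8, B3gnt3 in 7 and Lama5 in 5. No paired analysis was possible because the sets compared share no replicate number.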
